A study of Mus musculus with 4 samples.

Results

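Levels of 54 DNA replication and mitosis genes were followed in single cells from the caudal part of mouse embryos at embryonic day 8.5, across cell types and in both genotypes. The genes were 27 that act in DNA replication (S phase) and 27 that act in mitosis (G2/M), taken by symbol from the 31055 gene rows of each count matrix, and all 54 were found. The WT libraries (replicates 1 and 2) came from a pool of 5 WT embryos and the *Grhl3*-null libraries (replicates 1 and 2) from a pool of 3 *Grhl3*-null embryos. Both genotypes were offspring of *Grhl3*+/- intercrosses, and their cells were freed with trypsin. *Grhl3* encodes a transcription factor of the surface ectoderm that is needed for closure of the caudal neural tube. The 2 libraries of a genotype were repeated droplet reactions on 1 pool of cells, so every p-value given here compares 2 pools and contains no spread between embryos.

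A dividing cell copies its DNA once and then divides. Origins are licensed when Cdc6 and Cdt1 load the Mcm2 to Mcm7 ring, which Cdc45 and the GINS complex turn into the moving helicase. Primase, DNA polymerases, the Pcna clamp, its loader and the Okazaki fragment enzymes Fen1 and Lig1 then copy the strands, with nucleotides supplied by ribonucleotide reductase and thymidylate synthase. Mitosis is driven by Cdk1 with cyclins A and B, by the Aurora and Polo kinases, and by motor and kinetochore proteins, and it ends when Cdc20 and Ube2c direct the anaphase-promoting complex to its substrates. Replication genes are largely transcribed through E2F factors before and during S phase. Mitotic genes are largely transcribed later, through CCAAT boxes and a short element called CHR (cell cycle genes homology region) that bind NF-Y and the MuvB complex. Cells of the early embryo cycle fast and nearly without rest.

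The promoters of the 2 gene groups differed in these letters. Windows of 300 bases, 250 before and 50 after each RefSeq start site on GRCm38.p6, were present for 47 of the 54 genes (53 windows, since some genes have several starts) among 32851 windows in all. The genes with no window here were *Rfc2*, *Aurkb*, *Gins2*, *Mcm4*, *Tpx2*, *Ccne2* and *Ccna2*. On both strands, 1 of the E2F words TTTCCCGC, TTTGGCGC, TTTCGCGC or TTTGCCGC was found in 11 of 28 S-phase windows (39.3%), in 1 of 25 G2/M windows (4%) and in 2.26% of all windows. The S-phase genes with an E2F word were *Mcm3*, *Mcm5*, *Mcm6*, *Mcm7*, *Cdc6*, *Cdt1*, *Clspn*, *Lig1*, *Uhrf1*, *Hells* and *Pola1*, and the G2/M gene was *Cdk1*. The CHR words TTTGAA or TTTAAA were found in 22 of 25 G2/M windows (88%), in 7 of 28 S-phase windows (25%) and in 27.6% of all windows. *Nusap1*, *Bub1* and *Cks2* had a G2/M window without a CHR word. CCAAT was found in 20 G2/M windows (80%), in 16 S-phase windows (57.1%) and in 37.4% of all windows. A match describes the letters only and is no evidence that a factor binds there.

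The 250 bases before the start site are printed for the 3 genes of each group that followed the rest of their group most closely from cell to cell, which is described next. They are RefSeq sequence on GRCm38.p6, 5′ to 3′ on the strand of the gene, at chr12:24708004-24708253 for *Rrm2* (plus strand), chr5:114130185-114130434 for *Ung* (plus), chr8:75109259-75109508 for *Mcm5* (plus), chr2:164769679-164769928 for *Ube2c* (plus), chr1:189688087-189688336 for *Cenpf* (minus) and chr13:51644982-51645231 for *Cks2* (plus). Capitals mark the words searched, on either strand. *Mcm5* held 2 E2F words that overlap each other, 1 CHR word and 2 CCAAT boxes, *Ube2c* held 1 CHR word and 6 CCAAT boxes, *Cenpf* held 1 CHR word and 2 CCAAT boxes, *Cks2* held 2 CCAAT boxes, *Rrm2* held 1, and *Ung* held none of the words.
Rrm2: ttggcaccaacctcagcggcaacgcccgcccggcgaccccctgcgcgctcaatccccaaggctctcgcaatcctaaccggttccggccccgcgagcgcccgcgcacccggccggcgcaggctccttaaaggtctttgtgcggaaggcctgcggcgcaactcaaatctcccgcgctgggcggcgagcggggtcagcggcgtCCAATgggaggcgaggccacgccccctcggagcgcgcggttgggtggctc
Ung: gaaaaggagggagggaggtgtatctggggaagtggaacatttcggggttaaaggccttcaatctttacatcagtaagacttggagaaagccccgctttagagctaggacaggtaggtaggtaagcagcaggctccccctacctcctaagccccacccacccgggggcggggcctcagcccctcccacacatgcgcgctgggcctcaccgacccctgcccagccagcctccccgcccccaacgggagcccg
Mcm5: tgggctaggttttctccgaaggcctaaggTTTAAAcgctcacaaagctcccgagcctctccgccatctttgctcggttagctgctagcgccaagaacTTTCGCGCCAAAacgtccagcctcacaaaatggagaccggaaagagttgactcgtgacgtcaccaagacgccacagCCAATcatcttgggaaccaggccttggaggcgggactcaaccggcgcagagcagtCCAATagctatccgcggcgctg
Ube2c: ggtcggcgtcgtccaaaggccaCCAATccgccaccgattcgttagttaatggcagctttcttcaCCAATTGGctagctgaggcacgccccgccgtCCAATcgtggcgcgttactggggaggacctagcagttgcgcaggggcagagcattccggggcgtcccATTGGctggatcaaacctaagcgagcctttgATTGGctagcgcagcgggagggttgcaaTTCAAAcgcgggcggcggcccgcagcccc
Cenpf: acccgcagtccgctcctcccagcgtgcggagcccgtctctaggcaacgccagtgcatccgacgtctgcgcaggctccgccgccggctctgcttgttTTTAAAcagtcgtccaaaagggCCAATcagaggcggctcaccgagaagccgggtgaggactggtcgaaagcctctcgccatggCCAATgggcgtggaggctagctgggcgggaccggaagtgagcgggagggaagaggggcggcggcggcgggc
Cks2: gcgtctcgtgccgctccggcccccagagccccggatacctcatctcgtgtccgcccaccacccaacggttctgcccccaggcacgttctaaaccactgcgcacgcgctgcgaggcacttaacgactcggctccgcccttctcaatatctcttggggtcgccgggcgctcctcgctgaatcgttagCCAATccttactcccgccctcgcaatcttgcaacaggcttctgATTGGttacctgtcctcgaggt

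The libraries held between 5698 and 6186 barcodes, of which between 4781 and 5459 passed the filters (a minimum of 3000 genes and of 7500 UMIs, and a mitochondrial share up to 7%). A UMI is 1 counted RNA molecule, and levels are given as CPM, the UMIs of a gene for every 1000000 UMIs of the cells summed. The filtered cells held between 209833527 and 226723903 UMIs per library, with medians of 33391 to 38070 UMIs per cell. Between 5 and 7 cell barcodes were shared by any 2 libraries. In WT, *Grhl3* itself had 878 UMIs in replicate 1 and 803 in replicate 2, and in *Grhl3*-null it had 12 and 14. The libraries also differed in sex, read from *Xist* and 4 Y-linked genes: 23.1% and 23.6% of the WT cells and 47% and 48.1% of the *Grhl3*-null cells were called male, and 63.9% and 63.8% against 37.6% and 35.6% were called female. Cells fell into 16 clusters, named as X-like from the markers that the study chose on these samples, and 3 clusters stayed unnamed (0, 10 and 11). The cluster that carried the markers of neural plate border and surface ectoderm together is called surface ectoderm-like here. The pre-somitic mesoderm-like cluster had 505 and 492 WT cells but 4 and 3 *Grhl3*-null cells.

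Within cell types, the members of each group varied together from cell to cell, and the 2 groups ran opposite to each other. Over the 351 pairs of G2/M genes, the median Pearson correlation across cells (log-normalised UMIs, centred within each cluster) was 0.284 and 0.300 in the WT libraries and 0.313 and 0.310 in the *Grhl3*-null libraries. Over the 351 pairs of S-phase genes it was 0.156 and 0.159 in WT and 0.151 and 0.149 in *Grhl3*-null. Over the 729 pairs of 1 gene from each group it was -0.146 and -0.158 in WT and -0.141 and -0.138 in *Grhl3*-null. All 4 libraries therefore showed the same order. Thinning every cell to 7500 UMIs moved the WT medians toward 0, to 0.050 for S-phase pairs, 0.100 for G2/M pairs and -0.052 between groups. These values are descriptions across cells that share a library and a pool. All genes of a cell also share its sequencing depth.

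The ubiquitin-conjugating enzyme *Ube2c*, which works with the anaphase-promoting complex, was at the centre of the G2/M genes. Its r with the summed other G2/M genes was 0.822 (mean of the WT libraries), followed by 0.763 for the kinetochore gene *Cenpf* and 0.747 for *Cks2*, the small partner of Cdk1. The strongest pairs were *Cenpf* with *Ube2c* (r = 0.714 and 0.738 in the WT libraries) and *Ccnb1*, cyclin B1, with *Ube2c* (0.707 and 0.731). *Ccnb2*, cyclin B2, followed its group least, at 0.121, and *Ttk* and *Ndc80*, genes of the spindle checkpoint and the kinetochore, had values of 0.260 and 0.270. These genes also differed in level. The WT means over all cells were 517 CPM for *Ube2c*, 486 for *Cks2*, 115 for *Ccnb2*, 30.2 for *Ttk* and 30.7 for *Ndc80*. The part of level in the order of r was not tested. *Cdc20* and *Cenpa* formed a brighter pair among genes with weaker links, as the plot of pairwise correlations shows.

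Among the S-phase genes, *Rrm2* (r = 0.630 with the summed other S-phase genes) and the uracil-DNA glycosylase gene *Ung* (0.617) led, followed by *Mcm5* (0.535), *Mcm3* (0.533) and *Slbp* (0.516), whose product binds histone mRNA. *Rrm2* encodes the small subunit of ribonucleotide reductase, and *Rrm1*, which encodes the large subunit of the same enzyme, had an r of only 0.131. *Tyms* (0.169), *Rfc2* (0.143) and *Pola1* (0.074), the catalytic subunit of DNA polymerase alpha, were also weak. In WT means over all cells, *Rrm2* had 314 CPM and *Ung* 84.1, and *Rrm1* 122, *Tyms* 151, *Rfc2* 124 and *Pola1* 37.5. *Ung* ran most strongly against the G2/M genes: its r with *Ube2c* was -0.540 and -0.572 in the WT libraries, the lowest of all pairs.

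**Figure D1:**
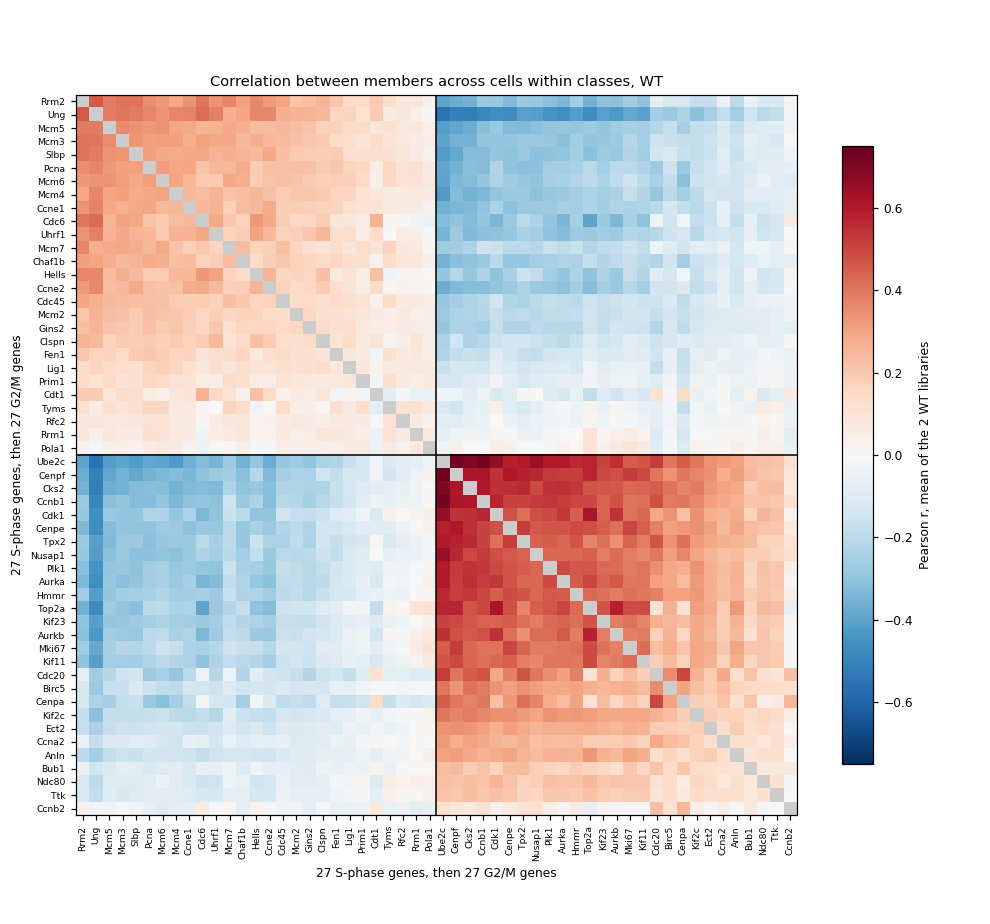
Pearson r between each pair of the 54 genes across WT cells within clusters, as the mean of the 2 WT libraries. Both axes list the 27 S-phase genes and then the 27 G2/M genes, each ordered by how closely the gene followed its group, and colour gives r (red above 0, blue below, grey on the diagonal). The G2/M block at the lower right is the darkest red, the S-phase block at the upper left is lighter, and the blocks between the groups are mostly blue.

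Of 10279 genes detected in 10% or more of the WT cells, 22 of the 27 S-phase members were among the 100 most strongly correlated with the summed S-phase genes, each gene left out of its own sum. Likewise, 26 of the 27 G2/M members were among the 100 highest for the G2/M sum, *Ccnb2* being the exception. The median over all ranked genes was -0.016 for the S-phase sum and 0.019 for the G2/M sum. The genes outside the list that came highest with the S-phase sum included *Orc6* (0.451), *Hat1*, *Rpa2*, *Dut*, *Atad2*, *Nasp*, *Msh6*, *Pclaf* and *Rfc3* (0.372). With the G2/M sum they included *Arl6ip1* (0.745), *Prc1* (0.691), *Bub3*, *Kpna2*, *Incenp*, *Jpt1*, *Cdca8*, *Smc4* and *Aspm* (0.509). *Arl6ip1* was above every member except *Ube2c*, *Cenpf* and *Cks2*.

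Nearly every cell held UMIs of both groups. With each cell thinned to 7500 UMIs, the median cell held 26 S-phase UMIs in every library, and 30 or 31 G2/M UMIs. The 10th percentile was 16 S-phase UMIs and 15 G2/M UMIs in all 4 libraries. No filtered cell was without an S-phase UMI. Free RNA in a droplet can add such UMIs, and its part was not tested. The correlation of the 2 thinned sums across all cells was -0.495 and -0.527 in WT and -0.457 and -0.444 in *Grhl3*-null. Cells were also cut into 3 equal bins by the G2/M share of their UMIs. In WT replicate 1, the median depth was 28038 UMIs in the lowest bin, 35207 in the middle and 39603 in the highest, and the summed S-phase level was 4340 CPM in the lowest and 2874 in the highest. The other 3 libraries gave the same order of depth and of S-phase level.

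Across cell types, the summed S-phase level in WT was highest in the neuroepithelium-like cluster, at 4084 and 4065 CPM in the 2 libraries. It was lowest in the endothelium-like cluster (2975 and 2818), the erythroid-like cluster (2810 and 3015) and the gut-like cluster (2979 and 2881), whose values overlapped. Neuroepithelium-like cells were thus 1.391 times the gut-like cells. Of the 27 S-phase genes, 15 had their highest WT mean in the neuroepithelium-like cluster, among them all 6 *Mcm* genes. *Mcm7* was 330 and 320 CPM there and 176 ± 10.4 (SD, n = 2) in the endothelium-like cluster, and *Rrm2* was 427 and 427 there and 221 ± 11.3 (SD, n = 2) in the gut-like cluster. *Hells*, a chromatin remodeller needed for DNA methylation, had the widest range of the S-phase genes, from 63.5 ± 12.1 in the erythroid-like to 186 ± 5.13 in the neuroepithelium-like cluster (SD, n = 2). *Slbp* had the narrowest, 1.267 times between its lowest and highest clusters.

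A few genes broke from their group in single cell types. *Ccne1*, cyclin E1, was highest in the erythroid-like cluster (134 ± 2.35 CPM, SD, n = 2), where *Prim1*, the primase subunit, was also highest (77.6 ± 5.61), although most other S-phase genes were low there. *Ccne1* was lowest in the endothelium-like cluster (47.3 ± 4.79). *Gins2* was lowest in the surface ectoderm-like cluster, at 55.7 ± 6.07 against 131 ± 1.25 in the neuroepithelium-like cluster. These differences exceeded the spread between the 2 WT libraries, which are repeat reactions.

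The summed G2/M level varied less in order and more between genes. Among the clusters with at least 50 WT cells, its WT mean was highest in unnamed cluster 11 (4716 and 4951 CPM). The values of unnamed cluster 10 (4740 and 4561), the neuroepithelium-like cluster (4732 and 4667) and the endothelium-like cluster (4550 and 4751) overlapped with these. The mean was lowest in the notochord-like (3412 and 3853) and erythroid-like clusters (3997 and 3422), which overlapped. Of the 27 genes, 12 were lowest in the erythroid-like and 9 in the notochord-like cluster. Erythroid-like cells had the highest *Mki67*, the proliferation antigen Ki-67 (273 and 267 CPM), and *Hmmr* (131 ± 15.5), but had the lowest *Cenpf* (158 and 109) and *Cenpa* (184 and 144), which encode centromere proteins. The primordial germ cell-like cluster had 5012 and 6180 CPM, from 16 and 5 cells.

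Unnamed cluster 11, led by *Lefty2*, *Ppp1r14a*, *Hand2* and *Foxf1*, split the G2/M genes. It had the highest WT mean of 10 of them, among these *Ube2c* (782 ± 65.3 CPM), *Cdc20* (265 ± 1.51) and *Cks2* (619 ± 9.76), and the lowest of 5, among these *Mki67* (30.9 and 32.8), *Anln* (8.97 and 10.4) and *Cenpe* (63.4 and 60.9; SD, n = 2 for the means). *Mki67* ranged 8.476-fold between this cluster and the erythroid-like cluster, and *Anln*, the cytokinesis scaffold anillin, 5.612-fold between this cluster and the endothelium-like cluster (54.3 ± 2.07). The cluster's median depth was 16218 UMIs per cell, the lowest of the clusters, and the part of depth in this pattern was not tested. Of its WT cells, 168 of 186 in replicate 1 and 155 of 165 in replicate 2 were called neither male nor female. Over all WT cells this held for 712 of 5459 and 647 of 5116. Of the 54 genes, 31 were among the variable features used for clustering, so the levels by cluster are a description without a test. A summed level cannot tell fewer cells in a phase from less RNA per cell.

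Over all cells, the *Grhl3*-null libraries differed from WT by small amounts in both directions. The summed S-phase level was 3441 and 3411 CPM in WT and 3413 and 3457 in *Grhl3*-null, and the summed G2/M level was 4558 and 4506 against 4536 and 4510, so both sums overlapped. All 54 genes passed the filter on low counts. With edgeR and adjusted p under 0.05 over 17168 genes, 8 members were higher and 17 lower in *Grhl3*-null, where 17.1% of all genes tested were called higher and 18.5% lower. The share of members called higher was thus near that of all genes, and the share called lower was above it. The median log2 fold change was -0.03 for S-phase and -0.03 for G2/M genes, against 0.003 for all genes. The largest change of any member was 0.233 in size on the log2 scale.

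The clearest fall was in *Tyms*, thymidylate synthase, with 153 and 149.5 CPM in WT and 129 and 134 in *Grhl3*-null (log2 fold change -0.23 ± 0.02 SE, edgeR adjusted p = 0.000402). *Cdc20* had 177 and 168 in WT and 153 and 152 in *Grhl3*-null (-0.21, adjusted p = 0.00167), and its partner in the anaphase-promoting complex, *Ube2c*, had 519.8 and 514 against 484 and 489 (-0.12, adjusted p = 0.0042). In each of these genes both *Grhl3*-null libraries lay below both WT libraries. Also called lower were *Chaf1b* (-0.17), a subunit of the chromatin assembly factor, the helicase partner *Cdc45* (-0.14), *Ung* (-0.13), *Prim1* (-0.13), *Rfc2* (-0.12) and the kinetochore gene *Ndc80* (-0.12). The other genes called lower were *Clspn*, *Ccnb2*, *Bub1*, *Cdk1*, *Rrm1*, *Ccne1*, *Mcm7* and *Cdc6*, with changes of -0.10 to -0.06.

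*Cdt1*, the licensing factor, rose most, from 57.4 and 58.4 CPM in WT to 67.0 and 68.5 in *Grhl3*-null (0.20 ± 0.02 SE, edgeR adjusted p = 0.000362). The cytokinesis genes *Anln* (37.9 and 36.3 against 42.4 and 40.6; 0.13) and *Ect2* (43.2 and 42.7 against 48.4 and 47.3; 0.13) also rose, as did *Ccne2* (0.11), *Hells* (0.10), *Pcna* (0.09), *Slbp* (0.08) and the spindle motor gene *Kif11* (0.08). The *Mcm* genes other than *Mcm7* were not called, with log2 fold changes from -0.03 to 0.001. By role, 3 of the 4 nucleotide supply and uracil repair genes and both anaphase-promoting complex genes were called lower. Of the 3 cytokinesis genes, 2 were called higher. Other roles were mixed: licensing and helicase genes had 1 higher and 3 lower of 10, and fork synthesis genes 1 and 2 of 6. Cyclin E and fork checkpoint genes had 1 and 2 of 3, and histone mRNA and chromatin genes 2 and 1 of 4. Each remaining role had at most 1 higher and 2 lower. Of all genes, 17.1% were called higher and 18.5% lower.

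The pools differed in their share of male cells, and in male cells alone 13 of these 25 genes had the opposite sign. Among those named as lower, *Tyms* (0.20), *Prim1* (0.34), *Cdc45* (0.23), *Mcm7* (0.26), *Ccne1* (0.12) and *Chaf1b* (0.14) were called higher in male *Grhl3*-null cells, and *Ung* (0.04), *Rfc2* (0.04), *Rrm1* (0.06) and *Cdc6* (0.08) had positive values without a call. Among those named as higher, *Kif11* (-0.14) was called lower there, and *Anln* (-0.06) and *Ect2* (-0.01) had negative values without a call. In female cells alone, *Pcna* (-0.01) and *Cdk1* (0.05) had the opposite sign without a call. Over all genes tested, 31.7% had a genotype difference that differed between male and female cells by edgeR. How many of all called genes changed sign within 1 sex was not counted.

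Scaling by library totals in place of TMM, a choice made after seeing the data, shifted the median gene to 0.032 and gave 11 members called higher and 10 lower, against 22.1% and 13.4% of all genes, with no called member changing sign. Leaving out 1 library changed the counts: 2 higher without WT replicate 2 and 5 without *Grhl3*-null replicate 1, and 9 lower without WT replicate 1 and 10 without *Grhl3*-null replicate 2.

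The same comparison was made within 13 clusters that had at least 50 cells in every library. All 54 members passed the filter in each, giving 702 tests, of which 41 were called higher and 64 lower, and the largest change was 0.397 in size on the log2 scale (*Ndc80*, lower in the paraxial mesoderm-like cluster). In that cluster 2 members were called higher and 16 lower, against 9.22% and 12.9% of all genes tested there. In the neuromesodermal progenitor-like cluster 5 were higher and 10 lower, against 8.39% and 11.2%. In the gut-like cluster 4 were higher and 10 lower, against 9.43% and 9.78%. In the neuroepithelium-like cluster 6 were higher and 8 lower, against 10.2% and 12.2%, and in the somitic mesoderm-like cluster 5 and 8, against 6.05% and 6.48%. The mesenchyme 2-like cluster had 6 higher and 5 lower (10.4% and 9.88% of all genes) and unnamed cluster 0 had 2 and 2 (5.49% and 4.37%). In the intermediate mesoderm-like cluster 2 were higher and 3 lower, both above the shares of all genes (1.6% and 1.64%). Unnamed cluster 10 had 1 and 0 (1.1% and 1.85% of all genes) and unnamed cluster 11 had 0 and 1 (2.46% and 1.9%). In the endothelium-like cluster (0.314% and 0.366% of all genes called) and the erythroid-like cluster (0.256% and 0.186%) edgeR and DESeq2 called no member. There 8 and 5 members had an unadjusted edgeR p under 0.05 (2 and 0 with DESeq2). With library totals in place of TMM, it was 10 of 54 members and 1383 of 11469 genes in the endothelium-like cluster. In the erythroid-like cluster it was 7 of 54 members and 885 of 8585 genes.

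*Tyms* was called lower in 7 clusters, from -0.35 in the paraxial mesoderm-like to -0.12 in the mesenchyme 2-like cluster, and *Cdc20* in 6, from -0.30 (somitic mesoderm-like) to -0.14 (neuroepithelium-like). *Ube2c* and *Chaf1b* were called lower in 5 clusters each. *Cdt1* was called higher in 5, from 0.15 (neuromesodermal progenitor-like) to 0.24 (paraxial mesoderm-like), *Slbp* in 5, and *Pcna* and *Hells* in 4 each. These clusters come from the same 4 libraries and are not independent repeats, and the sexes were not separated in these fits. Without WT replicate 1 the calls fell from 105 to 65, and without WT replicate 2 to 64.

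In the surface ectoderm-like cluster, the cell type in which *Grhl3* is known to act, most calls were higher in *Grhl3*-null: 8 members were higher and 1 lower, against 5.78% and 8.11% of all genes tested there. It held 248 and 216 WT and 257 and 245 *Grhl3*-null cells. *Ccnb1* had 171 and 165 CPM in WT and 213 and 220.3 in *Grhl3*-null (log2 fold change 0.32 ± 0.05 SE, edgeR adjusted p = 0.000158). *Ect2*, a cytokinesis regulator at the cleavage furrow, had 51.7 and 51.3 against 66.0 and 65.5 (0.31, adjusted p = 0.00127), and *Anln* had 37.0 and 34.7 against 46.3 and 45.4 (0.31, adjusted p = 0.00664). The *Grhl3*-null libraries lay above both WT libraries in all of these.

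*Kif11* (68.0 and 63.0 against 77.5 and 78.7), the hyaluronan and spindle protein gene *Hmmr* (71.4 and 64.8 against 80.6 and 79.8) and the spindle checkpoint kinase gene *Bub1* (70.2 and 67.4 against 82.7 and 78.9) were higher by 0.21, 0.19 and 0.19 on the log2 scale. *Top2a*, topoisomerase II alpha, had 382 and 350 against 418 and 431 (0.17), and *Slbp* was the only S-phase gene called higher (0.15, adjusted p = 0.0486 with edgeR). *Tyms* was lower, with 148 and 131 in WT and 116 and 128 in *Grhl3*-null (-0.25). Most of these calls were not particular to this cluster. Over the 13 clusters tested, this one included, *Slbp* was called higher in 5 and *Anln*, *Kif11* and *Top2a* in 3 each. *Ect2* and *Ccnb1* were called higher in 2 each, and *Bub1* and *Hmmr* in this cluster only. In male cells of this cluster alone, *Tyms* (0.27) and *Top2a* (-0.04) had the opposite sign. Of all 27 G2/M genes, the called ones included, 24 had a positive log2 fold change, and of the 27 S-phase genes 14 had one. The median was 0.13 for the G2/M genes, against 0.02 for the S-phase genes and 0.003 for all genes. The summed G2/M level was 4673 and 4454 in WT and 4899 and 5039 in *Grhl3*-null, and the summed S-phase level 3085 and 3009 against 3226 and 3185.

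**Figure D2:**
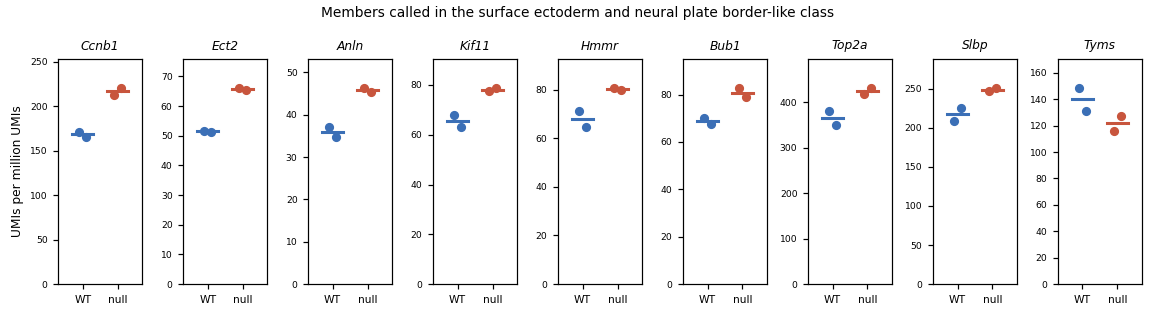
Levels of the 9 genes called in the surface ectoderm-like cluster, as CPM in each library (points) with the mean of 2 libraries per genotype (lines), each panel with its own axis from 0. For the first 8 genes both *Grhl3*-null points lie above both WT points, and for *Tyms* both lie below.

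With the test of the difference itself, 7 members changed differently in this cluster than in the mean of the other 12 clusters, against 4.85% of all genes. The cluster sums of a library entered this fit as separate samples, with no term for the library they share. The difference between the log2 fold changes was 0.377 for *Ndc80*, 0.296 for *Chaf1b*, 0.272 for *Ccnb1*, 0.236 for *Bub1*, 0.186 for the spindle assembly gene *Tpx2*, 0.144 for *Mcm5* and -0.174 for *Lig1*, DNA ligase I. Of these 7, only *Ccnb1* and *Bub1* were called in this cluster itself. Among the other clusters, *Ndc80* was called lower in 2, *Chaf1b* in 5, *Bub1* in 2 and *Mcm5* in 1, and *Lig1* was called higher in 1. Of the 27 G2/M genes, 26 had a positive difference, against 12 of the 27 S-phase genes. The counts rested on few libraries: of the 9 genes called in the cluster, 6 were still called without WT replicate 1, 5 without WT replicate 2, 3 without *Grhl3*-null replicate 1 and 5 without *Grhl3*-null replicate 2. The 7 differences became 3 without WT replicate 1 and 2 without any of the other libraries in turn. In the test of the difference, fewer of all genes were also called whenever 1 library was left out. DESeq2 called 1 member in the cluster, edgeR on cells thinned to 7500 UMIs called 0 (5 at an unadjusted p under 0.05), and scaling by library totals called 17 higher and 1 lower (8.92% and 6.09% of all genes).

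Other lists of cell cycle genes were read against the same background, 17.1% of all genes called higher and 18.5% lower in all cells, and several of their counts were near it. In all cells, *Ccnd2*, cyclin D2, had 521 and 528 CPM in WT and 724 and 744 in *Grhl3*-null (log2 fold change 0.46), the highest of the 6 D cyclin and G1 kinase genes, of which 1 was called higher and 2 lower (*Cdk4* lowest, -0.13). Of 7 CDK inhibitor genes, 2 were called lower: *Cdkn1a*, p21, had 23.0 and 23.3 against 17.9 and 19.8 (-0.33), and *Cdkn2b* was under 1 CPM in every library. Of 12 E2F and retinoblastoma family genes 4 were higher (*E2f2* most, 0.74) and 1 lower (*E2f6*, -0.14), and of 6 MuvB and *Foxm1* genes 3 were higher and 1 lower. Of 13 further origin genes 1 was higher (*Cdc7*, 0.08) and 7 lower (*Gins1* most, -0.20), and of 14 further polymerase and clamp loader genes 1 was higher (*Pold1*, 0.09) and 5 lower (*Rfc4* most, -0.21). Of 4 further nucleotide enzymes 1 was called in each direction, and of 6 checkpoint kinase and fork protection genes 1 was higher (*Atr*, 0.09). Of 33 further mitotic genes 7 were higher (*Cdc25b*, the Cdk1-activating phosphatase, 0.48) and 9 lower (*Pttg1*, securin, -0.37).

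In the surface ectoderm-like cluster, where 5.78% of all genes were called higher and 8.11% lower, all 3 D cyclins were higher: *Ccnd2* (352 and 388 against 554 and 506; 0.48), *Ccnd1* (124 and 132 against 168 and 151; 0.27) and *Ccnd3* (0.17). Of the 33 further mitotic genes 8 were higher there and 1 lower, with *Cdc25b* at 11.2 and 11.4 in WT and 22.7 and 18.4 in *Grhl3*-null (0.83) and *Pttg1* at 34.0 and 33.4 against 24.4 and 26.3 (-0.45). The CDK inhibitor *Cdkn1c*, p57, was lower (84.6 and 82.1 against 63.2 and 71.9; -0.35), the only call among the 4 tested. *Atr* (0.38) and *Atm* (0.34) were higher, and *Lin37* (-0.42), *Rpa2* (-0.23) and *Rfc4* (-0.23) were lower, with no other call among the MuvB, polymerase, origin, E2F and nucleotide lists.

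Many members had genotype differences of opposite sign in male and female cells, as did the summed levels. In male cells the summed S-phase level was 3258 and 3301 CPM in WT and 3569 and 3620 in *Grhl3*-null (9.595% above the WT mean), and the summed G2/M level was 4782 and 4695 against 4471 and 4464. In female cells the summed S-phase level was 3560 and 3504 in WT and 3333 and 3355 in *Grhl3*-null, and the summed G2/M level 4468 and 4476 against 4699.5 and 4700.2 (5.101% above). In each of these 4 comparisons the libraries of the genotypes did not overlap. In cells called neither male nor female the sums overlapped, with 3239 and 3202 in WT and 3237 and 3293 in *Grhl3*-null for S phase.

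**Figure D3:**
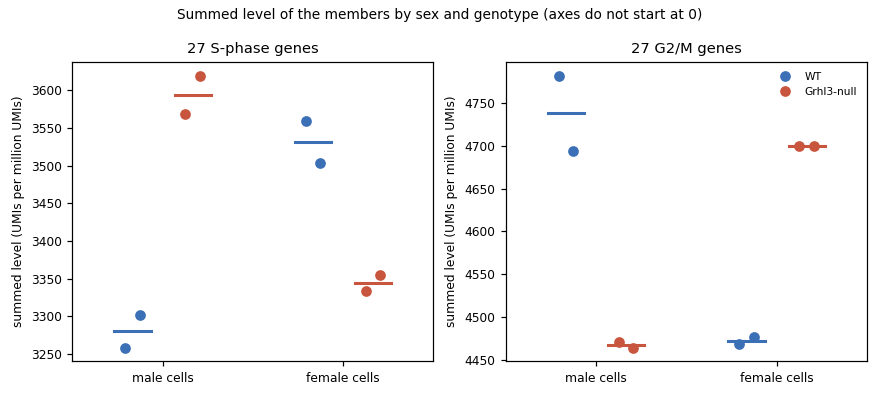
Summed level of the 27 S-phase genes (left) and the 27 G2/M genes (right) in male and female cells, in CPM, with 1 point per library and the mean of 2 libraries as a line. The axes do not start at 0. *Grhl3*-null lies above WT for S phase in male cells and below it in female cells, and the G2/M panel shows the reverse.

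By edgeR, 33 members had a genotype difference that differed between the sexes, against 31.7% of all genes tested. The male and female sums of a library entered this fit as separate samples, with no term for the library they share. All 18 S-phase genes called had the larger value in male cells, and 13 of the 15 G2/M genes called had the larger value in female cells. *Prim1* had 40.3 and 41.8 CPM in male WT and 50.9 and 53.2 in male *Grhl3*-null cells, but 56.0 and 52.8 in female WT and 41.4 and 43.2 in female *Grhl3*-null cells. The difference between its log2 fold changes was 0.725 ± 0.049 (SE, edgeR adjusted p = 1.67e-06). *Cdc45* (0.547), *Mcm7* (0.469) and *Rrm2* (0.468) had differences of the same sign. *Rrm2* rose from 278 and 281 to 330 and 336 in male cells and fell from 339 and 332 to 292 and 292 in female cells.

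Among the G2/M genes, *Kif11* fell from 83.5 and 81.4 to 74.7 and 75.2 in male cells and rose from 66.3 and 67.0 to 79.6 and 79.9 in female cells (-0.378). *Cks2* (-0.290), *Cenpf* (-0.251) and *Ect2* (-0.246) also had the smaller value in male cells. *Cenpf* was called lower in male cells (369 and 365 against 322 and 319.9) but not called in female cells, and *Ect2* was called higher in female cells (40.9 and 40.4 against 48.4 and 48.8) but not called in male cells. *Cdc20* (0.19) and *Ccna2* (0.13) were the G2/M genes called with the larger value in male cells.

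Within male cells 13 members were higher, 12 of them S-phase genes, and 9 lower, 8 of them G2/M genes, against 13.6% and 13.1% of all genes. Within female cells 12 were higher, 10 of them G2/M genes, and 15 lower, 14 of them S-phase genes, against 18.7% and 19.5%. *Cdt1* was the only member called in the same direction in both sexes (64.2 and 63.4 against 68.8 and 71.4 in male cells, 54.5 and 56.1 against 63.9 and 64.0 in female cells). Of the S-phase genes 9 were called in both sexes with opposite signs, and of the G2/M genes 3. The share of all genes called in both sexes, with the same or opposite signs, was not counted.

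**Figure D4:**
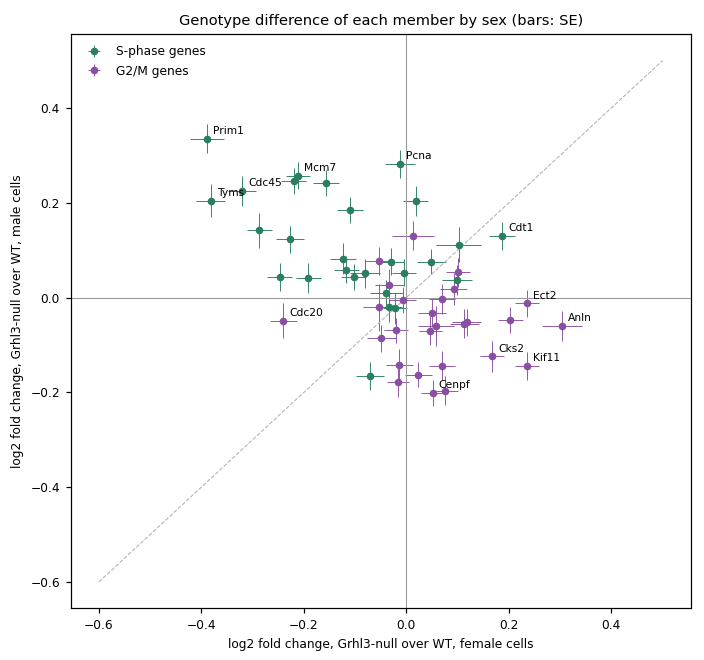
Log2 fold change of each of the 54 genes, *Grhl3*-null over WT, in female cells (x axis) and male cells (y axis), with SE bars and a dashed line of equal change. Many S-phase genes (green) lie in the upper left quadrant, higher in male and lower in female *Grhl3*-null cells, and many G2/M genes (purple) lie to the right of the dashed line.

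The male and female cells of a library come from different embryos, and embryo and sex cannot be told apart. They also differed in cell types: the neuroepithelium-like cluster had 61 and 71 male cells in WT and 417 and 470 in *Grhl3*-null, and 424 and 369 female cells in WT and 90 and 81 in *Grhl3*-null. Median depth was 36368, 36128, 36125 and 33898 UMIs in male cells (WT, then *Grhl3*-null) and 33110, 34221, 39697 and 37836 in female cells. Tested within 1 cluster at a time, a choice made after seeing the data, 29 members differed between the sexes in the neuroepithelium-like cluster (19 larger in male cells and 10 in female cells; 29.1% of all genes). There were 25 in the mesenchyme 2-like cluster (12 and 13; 22% of all genes), 23 in the somitic mesoderm-like cluster (11 and 12; 4.14%), 20 in the neuromesodermal progenitor-like cluster (7 and 13; 9.54%) and 20 in unnamed cluster 0 (8 and 12; 12.4%). There were 10 in the surface ectoderm-like cluster (8 and 2; 10.4%) and 3 in the gut-like cluster (1 and 2; 7.04%). The median genotype change of the S-phase genes was larger in male than in female cells in 11 of 13 clusters, and that of the G2/M genes was smaller in 9 of 13. Only the 7 clusters tested singly had at least 50 cells of each sex in every library. Unnamed cluster 11, for example, had 7, 6, 9 and 16 male and 11, 4, 3 and 5 female cells (WT, then *Grhl3*-null). In the surface ectoderm-like cluster the G2/M median was 0.11 in male and 0.09 in female cells.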

How the data were processed

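Single cells were measured with the 10x Genomics 3′ assay in 4 libraries, assigned to genotype and replicate by their labels. The authors aligned reads to mm10 with Cell Ranger 3.0.0 and deposited whole-number UMI counts per gene and barcode called as a cell, before their own filters. Those filters were applied here. Cells were normalised and clustered with Seurat 5.3.0 and sctransform 0.4.2 (3000 variable features, 30 components, resolution 0.4), without integration. Clusters were named by the study's 15 markers per cell type: the type with most markers in a cluster's 30 leading genes gave the name, if it had 3 or more and over 1.5 times those of the next. Rebuilt clusters can differ from the study's. Doublets were scored with Scrublet in scanpy 1.11.5. Its automatic threshold marked at most 0.0413% of a library, so it did not work, and doublets stayed in. Taking out the 5% highest scores was an alternative.

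UMIs were summed per library and cluster and tested with edgeR 4.0.16 (TMM, filterByExpr, quasi-likelihood), with Benjamini-Hochberg adjustment over all genes tested and calls under 0.05. DESeq2 1.42.0 was an alternative. Cells with 2 or more UMIs over 4 Y-linked genes and no more than 2 of *Xist* were called male. Cells with 3 or more of *Xist* and no more than 1 over the Y-linked genes were called female. The test procedures were checked on simulated counts. Chi-square over genes, divided by its degrees of freedom, was 8.196 between the WT libraries and 14.365 between the *Grhl3*-null libraries, so neither pair was 1 library deposited again. Replicate numbers were not treated as pairs: no label ties same-numbered libraries together, and their deviations had r = 0.0081 over all genes and 0.467 over the 54 members.

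The members and the other cell cycle lists were chosen with earlier results of these data known. All members could be named. Of the other lists, the genes with the largest and smallest change among those called, the CDK inhibitors and the D cyclins could be named, and of other genes the 10 highest correlated with each sum, of which some are not reported here. The members named for the difference between sexes were chosen after their values were seen.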

Additional observations from a re-analysis of the deposited data

Results flagged for a closer look

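In the surface ectoderm-like cluster, 7 members had a genotype difference that differed from the mean of the other clusters by the test of the difference. Of all genes tested, 4.85% did. On the log2 scale the differences were 0.377 for *Ndc80*, 0.296 for *Chaf1b*, 0.272 for *Ccnb1*, 0.236 for *Bub1*, 0.186 for *Tpx2*, 0.144 for *Mcm5* and -0.174 for *Lig1*. Only *Ccnb1* and *Bub1* among them were called in that cluster itself.

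Between male and female cells, 33 members had a genotype difference that differed by the test of the difference, against 31.7% of all genes tested. Male minus female, the difference was 0.725 for *Prim1*, 0.547 for *Cdc45*, 0.469 for *Mcm7* and 0.468 for *Rrm2*, and it was -0.378 for *Kif11*, -0.290 for *Cks2*, -0.251 for *Cenpf* and -0.246 for *Ect2*. Tested within single clusters, 29 members differed in the neuroepithelium-like (29.1% of all genes), 25 in the mesenchyme 2-like (22%) and 23 in the somitic mesoderm-like cluster (4.14%). There were 20 in the neuromesodermal progenitor-like cluster (9.54%) and 20 in unnamed cluster 0 (12.4%). The surface ectoderm-like cluster had 10 (10.4%) and the gut-like cluster 3 (7.04%), the latter near the share of all genes. The male and female cells come from different embryos of each pool, which cannot be told apart from sex.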

How the results depend on the processing

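Members called higher in all cells numbered 8 in the fit reported, 5 without the filter on low counts, 13 in male cells only and 2 to 8 with 1 library left out. Members called lower numbered 17, and 9 in male cells only, 10 with library totals in place of TMM and 9 to 12 with 1 library left out. In the surface ectoderm-like cluster the 9 calls became 1 with DESeq2, 0 with thinned cells, 18 with library totals and 5 to 9 with 1 library left out. The 105 calls over all clusters became 36 with DESeq2, 23 with thinned cells and 64 to 97 with 1 library left out. The 7 differences between that cluster and the others became 2 to 3, and the 33 between the sexes 26 to 30, with 1 library left out.

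The median log2 fold change of the S-phase genes (-0.025) was -0.059 in thinned cells, 0.082 in male and -0.103 in female cells, 0.004 with library totals, -0.005 with the cluster makeup held equal and -0.052 to -0.022 with 1 library left out. That of the G2/M genes (-0.034) was -0.055 in male and 0.051 in female cells, -0.004 with library totals, 0.007 with equal makeup and -0.032 to -0.012 with 1 library left out. At a mitochondrial limit of 5%, the ratio of the neuroepithelium-like to the gut-like cluster went from 1.391 to 1.362 for the S-phase sum, and that of unnamed cluster 11 to the notochord-like cluster from 1.331 to 1.233 for the G2/M sum. The median correlations (0.158 for S-phase, 0.292 for G2/M and -0.152 for mixed pairs in WT) were 0.050, 0.100 and -0.052 in thinned cells, 0.151, 0.313 and -0.141 in *Grhl3*-null replicate 1 alone, and 0.149, 0.310 and -0.138 in *Grhl3*-null replicate 2 alone.

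Single genes changed sign in male cells only. In all cells these were *Tyms* (0.204), *Ung* (0.043), *Rfc2* (0.041), *Mcm7* (0.257), *Ccne1* (0.123), *Rrm1* (0.059), *Prim1* (0.335), *Cdc6* (0.082), *Cdc45* (0.225), *Chaf1b* (0.142), *Ect2* (-0.012), *Anln* (-0.060) and *Kif11* (-0.144), and in the surface ectoderm-like cluster *Tyms* (0.270) and *Top2a* (-0.039). In female cells only, *Pcna* (-0.012) and *Cdk1* (0.047) did. How many of all called genes changed sign in this way was not counted.

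With the replicate number as a block, 9 members were called higher and 20 lower in all cells, 10 in the surface ectoderm-like cluster, 11 against the other clusters (7 without the block) and 35 between the sexes. The deviations of same-numbered libraries had r = 0.0081 over all genes but 0.467 over the 54 members, and no label says what a number marks, so whether the numbers pair the libraries is not settled. The causes of these shifts were not tested. Depth limited the thinned fits, which hold 7500 UMIs per cell.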

Other observations

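A pseudogene copy of *Pcna* has its own row, *Pcna-ps2*, with 327 and 286 UMIs in WT and 304 and 289 in *Grhl3*-null, against 39386, 36904, 41955 and 38667 UMIs for *Pcna*, and how reads were shared between the copies was not tested.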
